A study of Mus musculus with 217 samples.

Results

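The 9 genes described here, Casp1, Casp4, Casp6, Casp8, Gsdmd, Ripk3, Mlkl, Bcl2l1 and Birc3, carry out or restrain inflammatory and apoptotic cell death. They were chosen by name from 52550 gene identifiers counted in ribosome-bound RNA of mouse endothelial cells, and all 9 were found. Lipopolysaccharide (LPS), a component of the outer membrane of Gram-negative bacteria, is sensed inside cells by caspase-11, the product of mouse Casp4. Caspase-11 and caspase-1 cleave gasdermin D, which opens pores in the plasma membrane, a death called pyroptosis. In necroptosis the kinase RIPK3 phosphorylates MLKL, which then ruptures the membrane, while caspase-8 starts apoptosis, holds necroptosis back and feeds executioner caspases such as caspase-6. Endothelial cells line the vessels of every organ, and endotoxin damage to them is a known feature of sepsis.

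Adult C57BL/6J mice of genotype Cdh5CreERT2/+; Rpl22HA/+ carried a tamoxifen-inducible Cre driven by the Cdh5 promoter and, after Cre acts, the ribosomal protein Rpl22 with an HA tag, so that an antibody pulls tagged ribosomes and their RNA from whole tissue. All animals, controls included, were 4 to 6 weeks old when 5 mg tamoxifen was given by gavage on 4 alternate days. LPS was injected into the peritoneum at 10 mg per kg, and brain, lung and heart were taken 6, 24, 48, 72 or 168 hr later. Controls are labelled 0 hr and, by the study's methods, received phosphate-buffered saline. The ages at harvest and the sexes are not given in the labels used here. Brain and heart have 5, 5, 4, 6, 4 and 4 libraries at 0, 6, 24, 48, 72 and 168 hr, and lung has 4, 4, 2, 6, 4 and 4. These 80 libraries remained of 98 after those with under 3% of reads on genes had been left out. A library here is the sum of its sequencing runs. Library series 1, 2 and 4, read from the pattern of the deposited file names, are treated as technical batches, since no batch is labelled. At 0 and 6 hr libraries come from series 1 and 2, and series 4 enters from 24 hr on.

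Levels are log2 CPM (counts per 1e6 counts of the library) with a prior count of 2, scaled by TMM (trimmed mean of M values). Gene counts per library ran from 7226796 to 32891759 in brain, from 8136031 to 33050750 in heart and from 284457 to 43417945 in lung. The share of reads on genes had a median of 60.6% in brain, 63.4% in heart and 28.6% in lung. All 10 endothelial markers checked, Cdh5 and Pecam1 among them, were detected in every 0 hr library. Their summed level at 0 hr ran from 1829 to 3372 CPM in brain, from 9880 to 16333 CPM in lung and from 10503 to 11939 CPM in heart. In brain, the neuron gene Snap25 stood at 9.18 to 11.21 at 0 hr. In lung, 6 epithelial genes reached 6342 to 12142 CPM at 0 hr, and in heart 6 muscle genes reached 2854 to 5640 CPM. The part of other cells in the values that follow was not tested.

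One set of libraries stood apart from its groups before any test. The 6 hr libraries of library series 1 are brain replicate 6, heart replicate 5 and lung replicate 4. Their file names carry no animal number, so that they are taken here, without proof, to come from 1 mouse. Casp4 stood at 0.64 in brain replicate 6, where the other 4 libraries of 6 hr held 4.67 to 6.30 and the 5 of 0 hr 0.82 to 1.81. In heart replicate 5 Casp4 stood at 3.55, against 7.40 to 8.03 in the other 4 and 3.83 to 4.75 at 0 hr. In both tissues this library lay below all controls for Casp4, and for Birc3, Mlkl and Casp6 it lay with the controls or within 0.03 of their range. Lung replicate 4 had only 284457 counts on 3760 genes, and 8 of the 9 members had no read in it. Their time label may be wrong, which was not tested. Values are given with these libraries, as labelled, and without them where they matter.

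Depth also limits lung at 6 hr in other ways. Lung replicates 1 and 2 had 2678119 and 2745503 counts, with 2 and 5 members at 0, while replicate 3 had 40128330 counts and all 9 members. A count of 0 in replicates 1, 2 and 4 allows up to 1.12, 1.09 and 10.5 CPM, taking 3 counts as the limit. Such limits cover counting error only. A member without a read is printed as -3.35, the value that the prior count gives to 0.

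Before LPS, members can be ranked within a tissue by CPM per kb of exon, which divides by the joined length of all annotated exons. The length of the transcripts in use was not measured. On that scale Bcl2l1, which encodes the survival protein BCL-XL, was highest in each tissue, at 44.4 ± 11.9 (SD, n = 5) in brain, 273 ± 139 (n = 4) in lung and 69.2 ± 29.5 (n = 5) in heart. In all 3 tissues its libraries did not overlap with those of Casp8, the next gene in the order. Casp8 and Gsdmd followed in every tissue, and these neighbours overlapped, at 9.98 ± 3.99 and 7.87 ± 2.51 CPM per kb in brain. Ripk3 came last in brain with 0.303 ± 0.137 CPM per kb, and its range reached that of Casp4 at 0.651 ± 0.210. In heart Ripk3 came after Gsdmd with 13.8 ± 1.81 CPM per kb, overlapping with Casp1 at 13.2 ± 3.78, and Casp4 came last with 4.94 ± 1.44. In lung every pair of neighbours below Bcl2l1 overlapped, from Casp8 with 24.5 ± 20.2 to Casp1 with 1.85 ± 1.76 CPM per kb.

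**Figure D1:**
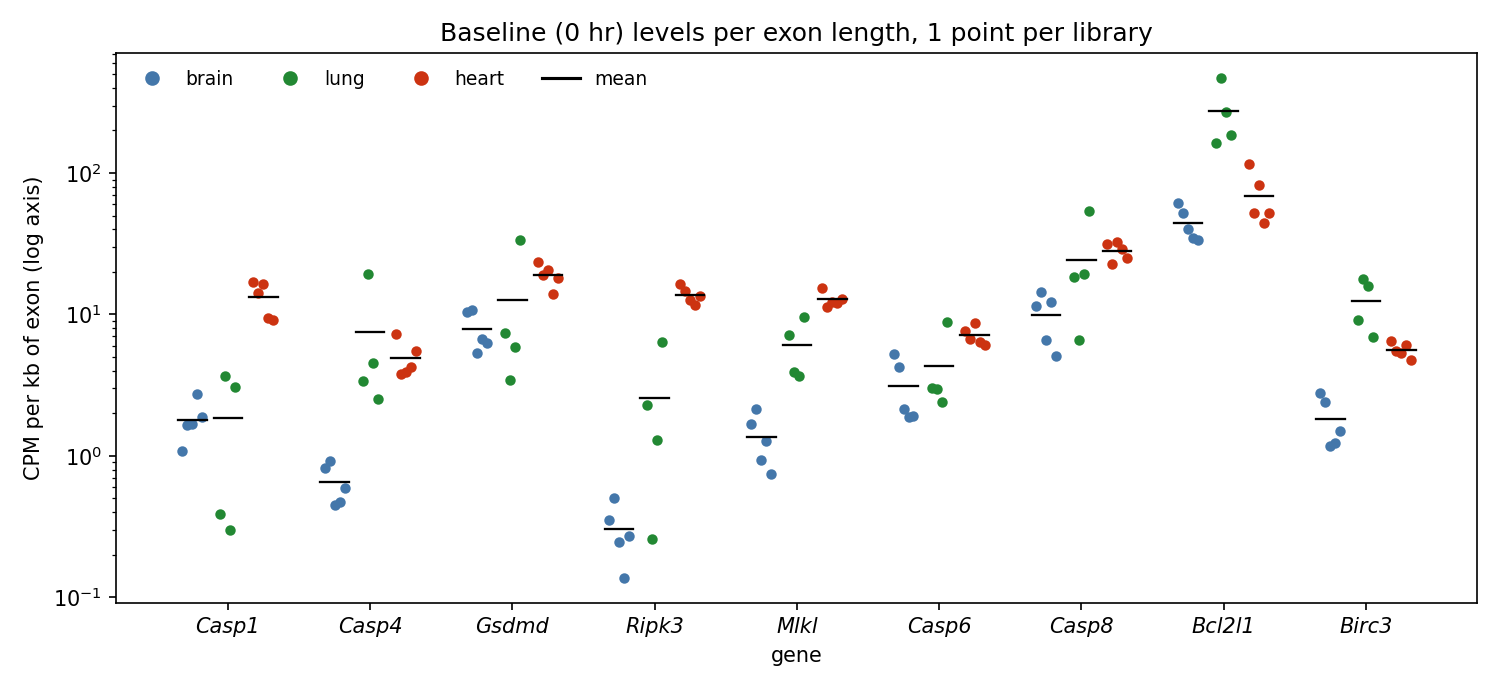
Level of each of the 9 genes at 0 hr in CPM per kb of exon (log axis), with 1 point per library (brain 5, lung 4, heart 5) and a line at the mean. Bcl2l1 is highest in each tissue, and Ripk3 spans from 0.303 CPM per kb in brain to 13.8 in heart on average.

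Differences between tissues before LPS were tested with the edgeR quasi-likelihood F test over all genes, with library series as a term and p adjusted by the Benjamini-Hochberg method. As read from file names, since no mouse is labelled, brain and heart at 0 hr share their mice and lung shares some of them. The mouse entered as a block in an alternative fit only. A gene passed with an adjusted p under 0.05. Brain was lower than heart for 8 of the 9 members, where 54.8% of 17730 genes passed in either direction. Ripk3 was at -1.27 to 0.33 in the 5 brain libraries and at 4.76 to 5.24 in the 5 heart libraries. The log2 difference was -5.68 (SE 0.53, adjusted p 2.67e-07), with no overlap. Mlkl was at 0.86 to 2.33 in brain and 4.72 to 5.16 in heart, a log2 difference of -3.40 (SE 0.26, adjusted p 3.98e-08). Both necroptosis genes were thus among the members with the widest gap between brain and heart. Bcl2l1 alone did not pass, with a log2 difference of -0.70 (SE 0.36, adjusted p 0.111).

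Against lung, brain was lower for 6 of the 9, where 64.3% of genes passed. The log2 differences of these 6 ran from -1.20 for Casp8 to -3.59 for Casp4. The Casp8 call ended without lung replicate 3 (-1.11) or lung replicate 4 (-0.70), and with the mouse as a block (-0.55). Between lung and heart 7 of the 9 passed, where 61.1% of genes did: 2 were higher in lung, Bcl2l1 at 2.02 and Birc3 at 1.19, and 5 lower. The Gsdmd call in that comparison, at -0.99, ended when any of 7 single libraries was left out (heart replicates 1, 3, 4 and 5 and lung replicates 1, 2 and 3, with values of -0.67 to -1.12). Without lung replicate 4 the Gsdmd value grew to -1.74 and Casp8 passed at -0.91, as it did with the mouse as a block (-1.15). The Casp6 call, at -0.96, ended without heart replicate 3 (-0.72) or lung replicate 3 (-0.85). Without library series both ended, Gsdmd at -0.61 and Casp6 at -0.73. RLE scaling, which moved the median of all genes between lung and heart by 0.11, also ended the Gsdmd call (-0.90). With all 98 libraries Bcl2l1 and Gsdmd between lung and heart no longer passed, at 1.61 and -0.95. Shares of 54.8% to 64.3%, in either direction, are the background to these counts, since most genes differed between tissues. As lower in brain alone, 22.8% of genes passed against heart and 26.4% against lung. Between lung and heart 29.9% passed as higher in lung and 31.2% as lower.

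Libraries of every later time were tested against the 0 hr libraries of their tissue, which the 5 comparisons of a tissue share. Over the 135 tests of members 31 passed as higher and 3 as lower, all 3 of the latter being Casp6 at 6 hr. In brain at 6 hr 5 of 9 members passed, 4 higher and 1 lower, where 6.44% of 19234 genes did. The count was 5 of 9 at 24 hr against 11.2% of genes, 4 of 9 at 48 hr against 14.2% and 3 of 9 at 72 hr against 3.53%. In brain the median log2 fold change was 0.73 for the members and 0.00 for all genes at 6 hr, and 0.98 and -0.03 at 24 hr. At 168 hr 0 of 9 passed and 0 of all genes did (0%), with 0 members and 828 genes at an unadjusted p under 0.05. DESeq2 called 0 members and 2 genes there, and limma-voom 0 and 0.

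In heart at 6 hr 8 of 9 members passed, 7 higher and 1 lower, where 42.8% of 16024 genes did. At 24 hr 6 of 9 passed against 16.2% of genes, and at 48 hr 2 of 9 against 4.19%. With 1 library left out, 2 to 5 members and 574 to 1918 genes were called in heart at 24 hr, against 2594 genes with all. Both lowest counts came without 24 hr replicate 2. The median log2 fold change in heart at 6 hr was 1.37 for the members and -0.05 for all genes. At 72 hr 0 of 9 passed against 0.275% of genes, with 1 member, Birc3, at an unadjusted p under 0.05 and 0 called by DESeq2 or limma-voom. At 168 hr 0 of 9 passed and 0 of all genes did (0%), with 0 members and 680 genes at an unadjusted p under 0.05. DESeq2 called 0 members and 2 genes at 168 hr, and limma-voom 0 and 0.

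In lung at 6 hr 1 of 9 members passed, as lower, where 4.83% of 17058 genes did. At 24, 48, 72 and 168 hr edgeR called 0 of 9 members in lung. The shares of all genes called were 0.375%, 0.598%, 0.193% and 0.0117%. At an unadjusted p under 0.05 there were 2, 2, 3 and 0 members at those times. DESeq2 called 1, 1, 0 and 0 of them, Casp4 at 24 hr and Ripk3 at 48 hr, and limma-voom called 0 at each. In lung at 168 hr the median of all genes was 0.00 under TMM, 0.15 under RLE and 0.11 under DESeq2.

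**Figure D2:**
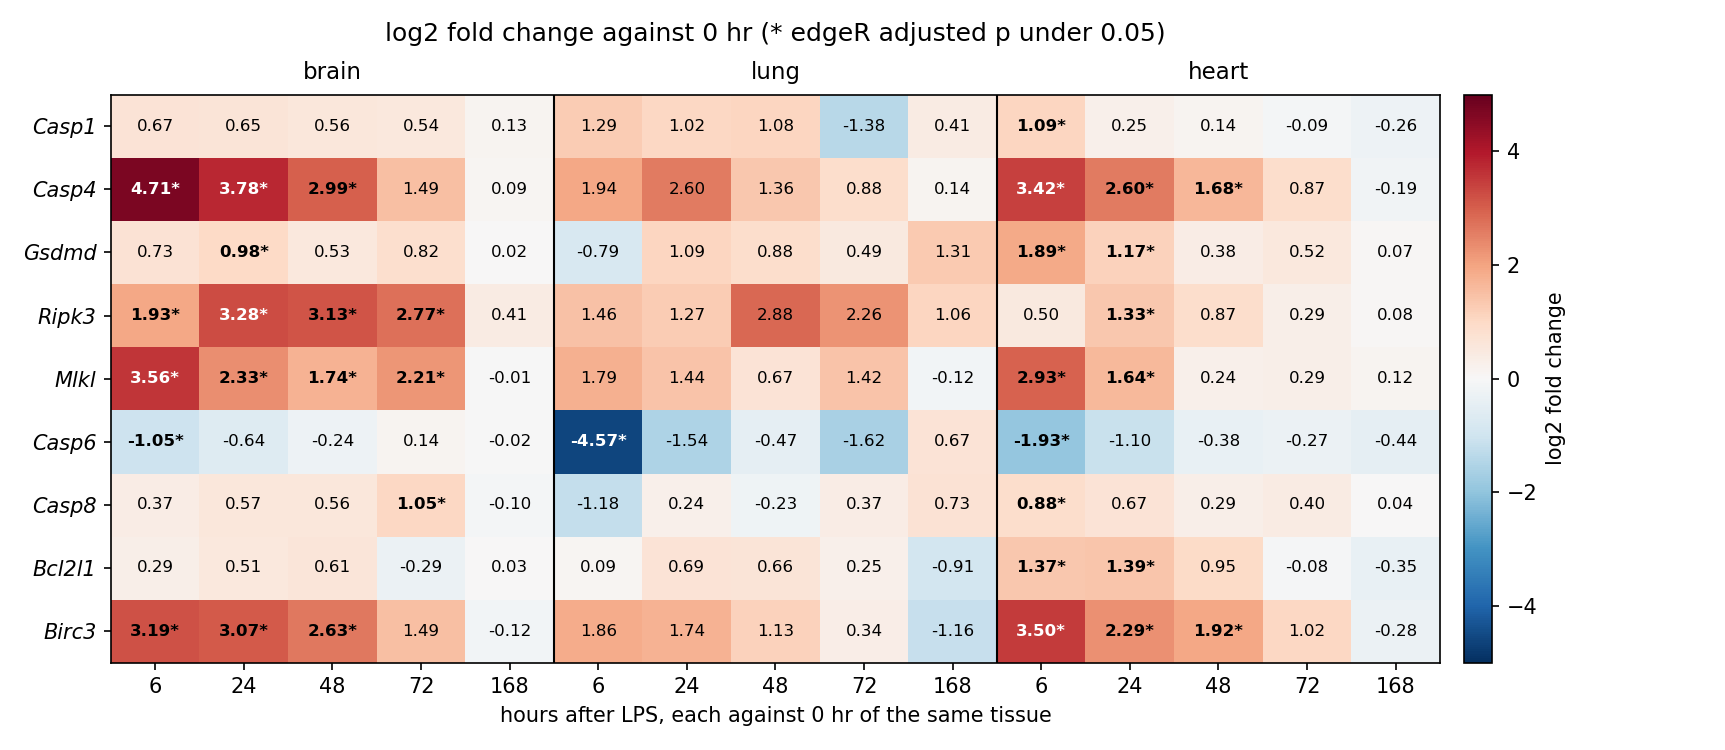
Log2 fold change of the 9 genes (lines) at 5 times after LPS against 0 hr of the same tissue, from the edgeR fit, with red for higher, blue for lower and a star at an adjusted p under 0.05. Brain and heart hold 33 of the 34 stars, and lung holds 1, Casp6 at 6 hr.

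**Figure D3:**
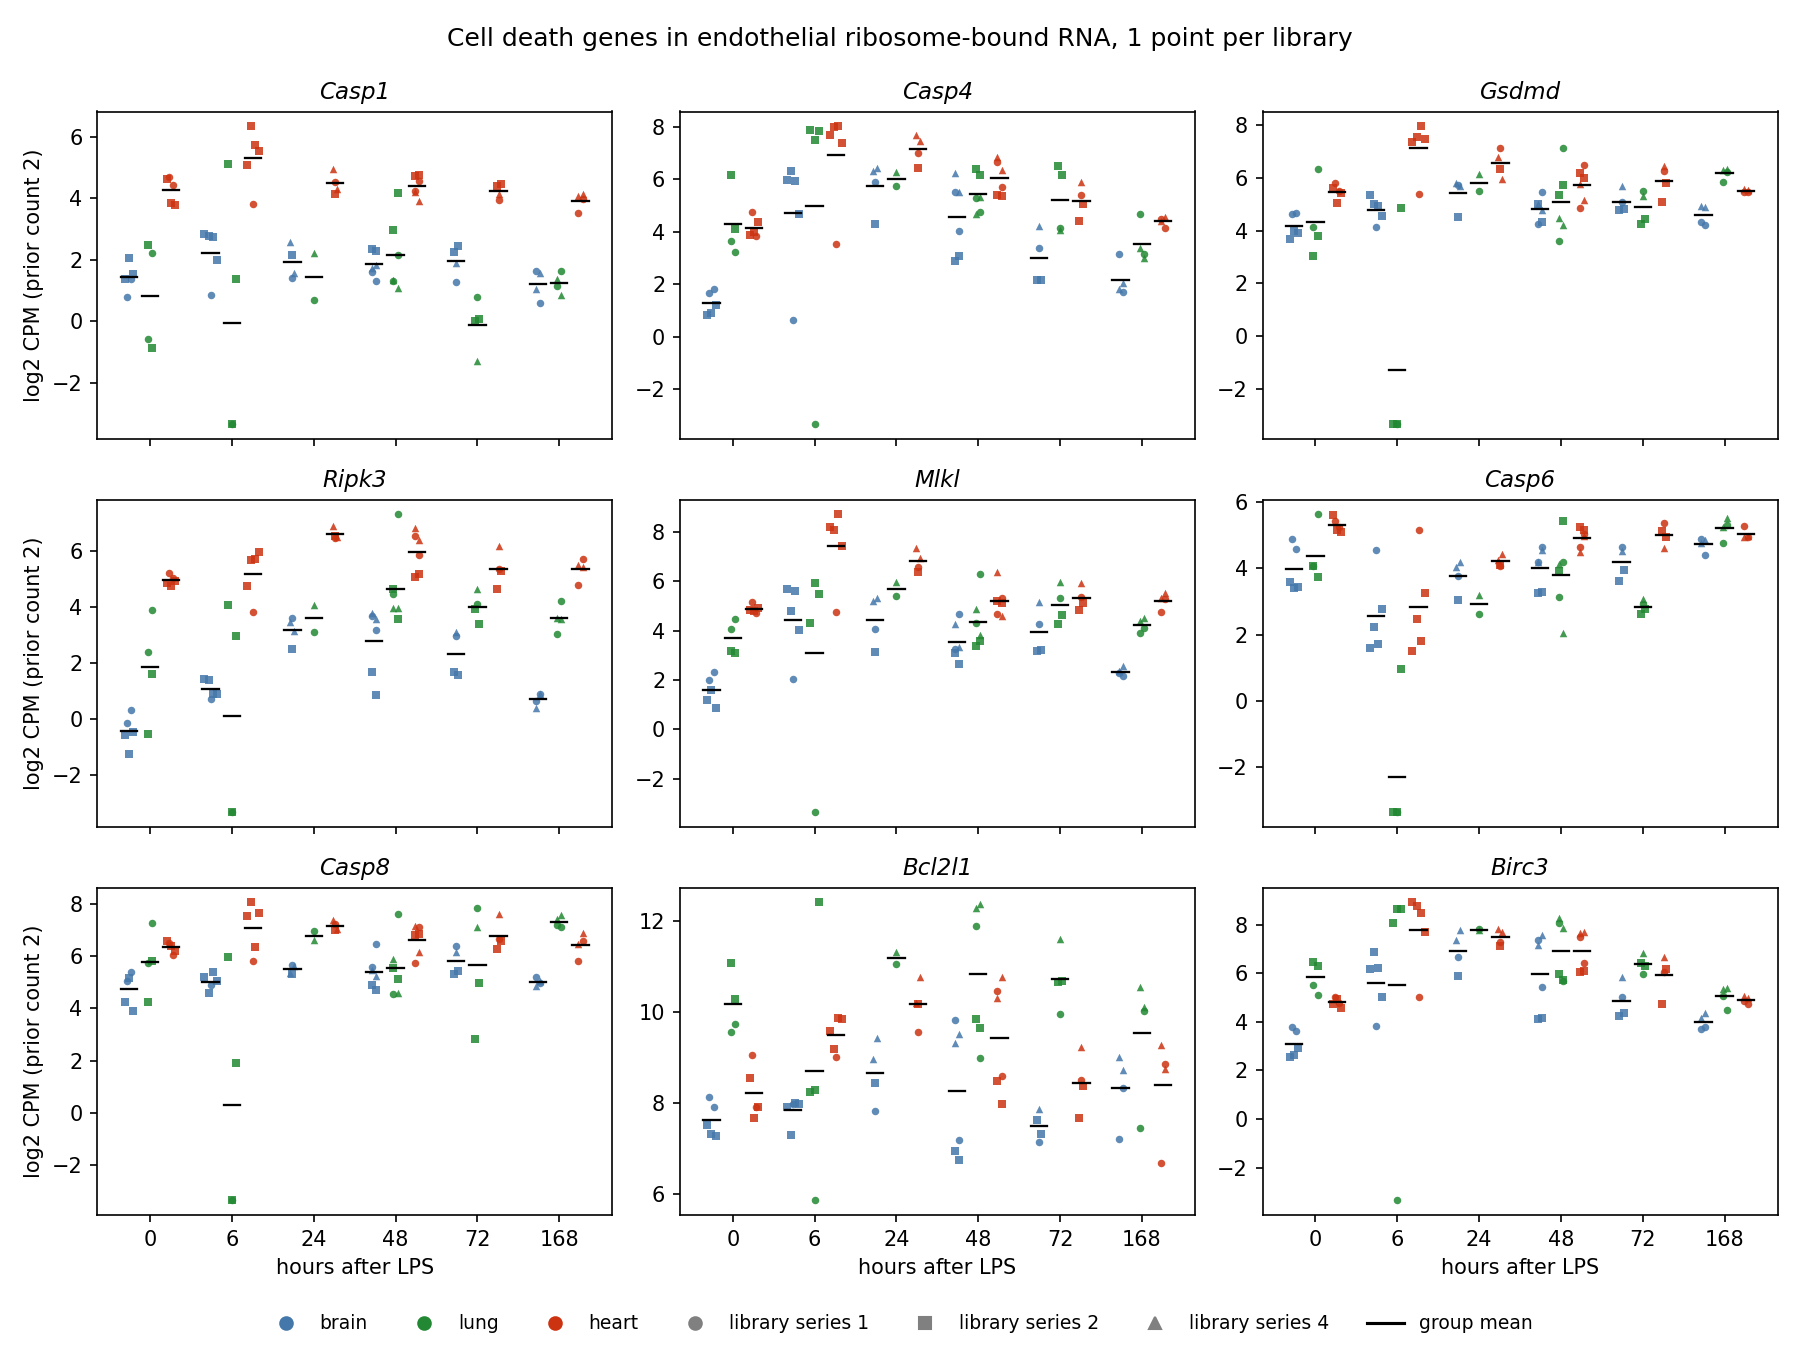
Level of each of the 9 genes as log2 CPM in each library by hours after LPS, with colour for tissue, marker shape for library series and a line at the group mean. The circles of library series 1 at 6 hr lie just below all controls for Casp4 (0.64 in brain, 3.55 in heart), and lung at 6 hr reaches the value of no read, -3.35.

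Members that moved together can be looked at in their promoters. Of the 9 members 8 have promoters in the RefSeq table (GRCm38.p6), 11 in all, each of 300 bases from 250 before to 50 after the start of transcription. Those of Casp4, Mlkl and Birc3 are printed because these genes passed most often after LPS, and 1 of Bcl2l1 because it holds a match. Capitals mark matches, on either strand, to GGGNNTTTCC, a spelling of the motif bound by NF-kappaB, the factor that carries much of the signal from LPS. The spellings were chosen after these promoters had been read. The Casp4 promoter lies at chr9:5308599-5308898 (+ strand), that of Mlkl at chr8:111338156-111338455 (- strand), that of Birc3 at chr9:7873121-7873420 (- strand) and that of Bcl2l1 at chr2:152830668-152830967 (- strand).
Casp4: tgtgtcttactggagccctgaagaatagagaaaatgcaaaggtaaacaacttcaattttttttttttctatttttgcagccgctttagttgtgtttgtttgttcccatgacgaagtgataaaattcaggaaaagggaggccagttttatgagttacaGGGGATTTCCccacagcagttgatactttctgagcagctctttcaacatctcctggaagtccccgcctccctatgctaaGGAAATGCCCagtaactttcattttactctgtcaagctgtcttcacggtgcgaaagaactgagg
Mlkl: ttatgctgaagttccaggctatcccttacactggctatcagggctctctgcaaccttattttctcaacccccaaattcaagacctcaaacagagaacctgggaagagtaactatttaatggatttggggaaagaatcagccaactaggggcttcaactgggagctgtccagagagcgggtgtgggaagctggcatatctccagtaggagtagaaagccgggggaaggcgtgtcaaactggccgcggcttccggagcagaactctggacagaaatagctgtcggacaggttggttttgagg
Birc3: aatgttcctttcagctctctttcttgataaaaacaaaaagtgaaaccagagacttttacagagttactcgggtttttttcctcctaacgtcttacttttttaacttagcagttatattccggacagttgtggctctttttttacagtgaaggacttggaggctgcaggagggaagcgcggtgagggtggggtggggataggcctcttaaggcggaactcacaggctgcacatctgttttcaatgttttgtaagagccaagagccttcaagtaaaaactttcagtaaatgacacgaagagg
Bcl2l1: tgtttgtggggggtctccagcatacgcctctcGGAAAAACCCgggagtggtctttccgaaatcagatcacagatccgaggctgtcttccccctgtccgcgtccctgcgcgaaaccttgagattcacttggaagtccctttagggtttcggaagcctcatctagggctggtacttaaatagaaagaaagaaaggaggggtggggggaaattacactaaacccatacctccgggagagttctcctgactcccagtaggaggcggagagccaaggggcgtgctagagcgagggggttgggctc
The Casp4 promoter holds the motif at -93 on the gene's strand and at -14 on the other, and that of Bcl2l1 at -218 on the other strand. The 3 member promoters with a match are both of Casp4, which overlap each other, and this one of Bcl2l1, while 1.63% of all 32851 promoters hold it. Neither GAAANNGAAA, a spelling of the interferon-stimulated response element held by 3.44% of promoters, nor TTCNNNGAA, a STAT site held by 8.30%, was found in the 11. A match or its absence describes these letters in this window and says nothing of binding.

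Casp4 (ENSMUSG00000033538, chr9:5308828-5336783 on mm10) encodes caspase-11. In the 5 brain libraries of 0 hr it stood at 1.65, 1.81, 0.82, 0.89 and 1.20, and in the 5 of 6 hr at 5.98, 6.30, 5.96, 4.67 and 0.64. At 24 hr the 4 brain libraries held 5.90, 4.29, 6.34 and 6.44. At 6 hr 4 of 5 libraries lay above all controls and replicate 6 lay below them, and at 24 hr all 4 lay above. The log2 fold change in brain was 4.71 (SE 0.71, adjusted p 0.000208) at 6 hr and 3.78 (SE 0.71, adjusted p 0.00169) at 24 hr. At 48 hr the 6 brain libraries ran from 2.88 over a median of 4.78 to 6.26, all above the controls, with a log2 fold change of 2.99 (SE 0.66, adjusted p 0.0051). That call ended under limma-voom, at 2.89. At 72 hr all 4 libraries still lay above the controls, at 2.15 to 4.23, but the gene did not pass by edgeR (1.49, adjusted p 0.262) except without a filter on low counts (1.55).

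In heart Casp4 stood at 4.75, 3.83, 3.88, 3.98 and 4.36 at 0 hr and at 7.70, 8.01, 8.03, 7.40 and 3.55 at 6 hr. At 24 hr its 4 heart libraries held 7.01, 6.43, 7.68 and 7.47. Apart from replicate 5 at 6 hr, every heart library of both times lay above every control. Its log2 fold change was 3.42 (SE 0.50, adjusted p 3.13e-05) at 6 hr and 2.60 (SE 0.50, adjusted p 0.00254) at 24 hr. At 48 hr it was 1.68 (SE 0.45, adjusted p 0.0351), with 6 of 6 libraries above the controls. This last call ended when any of 7 single libraries was left out (0 hr replicates 1 to 5 and 48 hr replicates 3 and 6, with values of 1.47 to 1.86), under limma-voom (1.73) and with all 3 tissues in 1 fit (1.86). Within library series 2 alone, whose 6 hr libraries are 4 in each tissue, the mean of 6 hr was above that of 0 hr by 4.76 in brain and 3.71 in heart. Within series 1, with 1 library of 6 hr, the differences were -1.09 and -0.74.

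Casp1 (ENSMUSG00000025888, chr9:5298517-5307265) encodes the caspase that inflammasomes activate and lies next to Casp4. In brain its level stayed between 0.60 and 2.83 in all 28 libraries, and it passed at no time. In heart it ran from 3.77 to 4.68 at 0 hr and from 3.80 to 6.34 at 6 hr, where 4 of 5 libraries lay above all controls. On the log2 scale the fold change there was 1.09 (SE 0.31, adjusted p 0.00858), and from 24 hr on it did not pass. A fit of all 3 tissues at once ended the 6 hr call, at 0.90.

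Gsdmd (ENSMUSG00000022575, chr15:75862327-75867408) encodes gasdermin D, the pore former that both inflammatory caspases cut. In heart it stood at 5.81, 5.50, 5.62, 5.06 and 5.43 at 0 hr and at 7.38, 7.57, 7.96, 7.50 and 5.38 at 6 hr. The 4 libraries of series 2 at 6 hr lay above every control, and replicate 5 lay among the controls. Against 0 hr the log2 fold change was 1.89 (SE 0.38, adjusted p 0.000655) at 6 hr and 1.17 (SE 0.39, adjusted p 0.0439) at 24 hr, when 4 of 4 libraries lay above all controls. The 24 hr call ended in heart without any 1 of the 5 controls or of 24 hr replicates 1, 2 and 4 (0.92 to 1.32), under limma-voom (1.17) and with all 3 tissues in 1 fit (1.01). In brain Gsdmd passed by edgeR at 24 hr only, at 0.98 (SE 0.29, adjusted p 0.0286), with 3 of 4 libraries above all controls. That call ended without 0 hr replicate 3 (0.89), 0 hr replicate 5 (0.94) or 24 hr replicate 1 (0.85), and with the 3 tissues fitted together (1.18). DESeq2 called it in brain also at 6 hr (0.77) and 72 hr (0.84), as did the fit without a filter on low counts (0.76 and 0.88), and at 72 hr 4 of 4 libraries lay above all controls.

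Mlkl (ENSMUSG00000012519, chr8:111311797-111338177) encodes the protein that breaks the membrane in necroptosis. In brain it stood at 1.98, 2.33, 1.17, 1.59 and 0.86 at 0 hr, at 5.67, 4.79, 5.62, 4.02 and 2.04 at 6 hr and at 4.05, 3.15, 5.20 and 5.30 at 24 hr. Only replicate 6 at 6 hr fell within the range of the controls. The log2 fold change was 3.56 (SE 0.53, adjusted p 0.000199) at 6 hr, 2.33 (SE 0.54, adjusted p 0.00752) at 24 hr, 1.74 at 48 hr and 2.21 at 72 hr, the last 2 with adjusted p of 0.0179 and 0.0118. At 48 and 72 hr every brain library lay above every control. The 48 hr call ended without 0 hr replicate 1 (1.75) and both late calls ended under limma-voom (1.62 and 2.23).

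In heart Mlkl stood at 5.16, 4.72, 4.83, 4.81 and 4.89 at 0 hr, at 8.19, 8.06, 8.70, 7.42 and 4.73 at 6 hr and at 6.55, 6.35, 7.35 and 6.93 at 24 hr. The pattern is that of Casp4, with replicate 5 at control level and the others high. Its log2 fold change was 2.93 (SE 0.44, adjusted p 4.17e-05) at 6 hr and 1.64 (SE 0.44, adjusted p 0.0181) at 24 hr. The 24 hr call in heart ended without 24 hr replicate 1 (1.59) or replicate 2 (1.77), and with all 3 tissues in 1 fit (1.51). Within library series 2 Mlkl was above 0 hr at 6 hr by 3.82 in brain and 3.25 in heart, and within series 1 the differences were -0.12 and -0.21.

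Ripk3 (ENSMUSG00000022221, chr14:55784995-55788865) encodes the kinase that acts on MLKL. In brain it stood at -0.14, 0.33, -0.59, -1.27 and -0.48 at 0 hr, at 1.43, 1.39, 0.88, 0.90 and 0.71 at 6 hr and at 3.62, 2.50, 3.48 and 3.16 at 24 hr. Every brain library after LPS, up to 168 hr, lay above every control, replicate 6 of 6 hr included. On the log2 scale the fold change was 1.93 (SE 0.35, adjusted p 0.000944) at 6 hr, 3.28 (SE 0.36, adjusted p 2.44e-05) at 24 hr, 3.13 (SE 0.35, adjusted p 1.36e-05) at 48 hr and 2.77 (SE 0.35, adjusted p 6.70e-05) at 72 hr. At 168 hr it was 0.41 and did not pass. The 6 hr call ended in a fit without the library series term, at 1.51.

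In heart, where Ripk3 started high, the 5 libraries of 6 hr ran from 3.85 to 5.98 and overlapped with the controls at 4.76 to 5.24. Without replicate 5 the 6 hr value went from 0.50 (adjusted p 0.207) to 0.85 (adjusted p 0.00596), past the threshold. At 24 hr Ripk3 stood at 6.47, 6.56, 6.90 and 6.52, above all controls, with a log2 fold change of 1.33 (SE 0.34, adjusted p 0.0139). That call ended without 24 hr replicate 2 (1.13), the 1 library of series 2 in that group, and with all 3 tissues in 1 fit (1.32). At 48 hr Ripk3 in heart passed only without a filter (0.86) or without library series (1.14). In brain at 24 and 48 hr, 4 and 6 libraries of Ripk3 did not overlap with the 5 controls. Neither did those of Casp4, Mlkl and Birc3. At those times 11.2% and 14.2% of all genes passed, and the share of all genes without overlap was not counted.

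Casp6 (ENSMUSG00000027997, chr3:129901425-129914103), an executioner caspase, moved the other way. In heart it stood at 5.42, 5.24, 5.61, 5.16 and 5.10 at 0 hr and at 1.52, 2.47, 1.80, 3.25 and 5.15 at 6 hr. All 4 libraries of series 2 lay below every control, and replicate 5 did not. Its log2 fold change was -1.93 (SE 0.41, adjusted p 0.000984), and -2.93 without replicate 5. At 24 hr all 4 heart libraries, at 4.07 to 4.43, lay below every control, and the gene passed only without a filter (-1.12, against -1.10, adjusted p 0.0925 with it). In brain the values were 4.88, 4.57, 3.59, 3.42 and 3.44 at 0 hr and 1.61, 2.22, 1.71, 2.78 and 4.56 at 6 hr. Again 4 of 5 libraries lay below all controls, with a log2 fold change of -1.05 (SE 0.24, adjusted p 0.00668). The brain call ended in a fit without library series, at -1.14, and in 1 fit of the 3 tissues, at -1.05. Within series 2 the mean fell by 1.40 in brain and by 3.03 in heart.

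In lung Casp6 stood at 4.08, 4.06, 3.75 and 5.62 at 0 hr, and at 6 hr it had no read in replicates 1, 2 and 4 and a level of 0.96 in replicate 3. All 4 libraries lay below the controls, and the log2 fold change was -4.57 (SE 0.95, adjusted p 0.00552). Only replicate 3 among them was deep. Without it no library of 6 hr held a read of Casp6, so that the fitted -11.21 is no size of a change. Replicate 3 alone lay 2.79 below the lowest control. Both lung libraries of 24 hr (2.62 and 3.203) and all 4 of 72 hr (2.61 to 3.09) also lay below every control, while 2 of 6 did at 48 hr. Neither 24 nor 72 hr passed in the fit of lung alone, and with all 3 tissues in 1 fit 72 hr did (-1.59). That fit called 1631 genes for lung at 72 hr, against 33 in lung alone. At 168 hr the 4 lung libraries stood at 4.76 to 5.51.

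Casp8 (ENSMUSG00000026029, chr1:58795374-58847503) encodes the initiator caspase at the fork between apoptosis and necroptosis. In brain it passed at 72 hr only, with levels of 5.32, 5.44, 6.38 and 6.16 against 5.06, 5.39, 4.25, 5.15 and 3.89 at 0 hr. There 3 of 4 libraries lay above all controls, with a log2 fold change of 1.05 (SE 0.25, adjusted p 0.0141). The call ended without 0 hr replicate 1 (1.05) or 72 hr replicate 3 (1.00), without library series (1.08) and with all 3 tissues in 1 fit (0.99). Without 0 hr replicate 4 Casp8 in brain passed at 24 hr (0.78) and 48 hr (0.77) too. In heart it passed at 6 hr with 0.88 (SE 0.33, adjusted p 0.0342), with 3 of 5 libraries above all controls and replicate 5 below them. Leaving out any of 7 single libraries ended this call (0 hr replicates 2 to 5 and 6 hr replicates 1, 2 and 4, with values of 0.64 to 0.92). It also ended under limma-voom (0.69) and with all 3 tissues in 1 fit (1.13).

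Birc3 (ENSMUSG00000032000, chr9:7848699-7873186) encodes cIAP2, a ubiquitin ligase that keeps the TNF receptor complex on its survival branch. In brain it stood at 3.81, 3.61, 2.57, 2.64 and 2.92 at 0 hr, at 6.17, 6.89, 6.21, 5.02 and 3.84 at 6 hr and at 6.69, 5.89, 7.38 and 7.80 at 24 hr. All 9 libraries lay above all controls, although replicate 6 at 6 hr did so by only 0.03. Against 0 hr the log2 fold change was 3.19 (SE 0.52, adjusted p 0.000423) at 6 hr, 3.07 (SE 0.53, adjusted p 0.000933) at 24 hr and 2.63 (SE 0.50, adjusted p 0.00183) at 48 hr. At 72 hr the 4 libraries, at 4.24 to 5.83, lay above all controls without passing (1.49, adjusted p 0.103). DESeq2 (1.505) and the fit without a filter (1.54) called Birc3 there. In heart the values were 5.03, 4.78, 4.75, 4.94 and 4.58 at 0 hr and 8.92, 8.79, 8.50, 7.69 and 5.03 at 6 hr. The log2 fold change in heart was 3.50 (SE 0.47, adjusted p 1.84e-05) at 6 hr, 2.29 at 24 hr and 1.92 at 48 hr, with 4 of 4 and 6 of 6 libraries above all controls at the later times.

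Bcl2l1 (ENSMUSG00000007659, chr2:152780668-152831728), which encodes a BCL-2 family protein that keeps mitochondria intact, passed in heart only. There it stood at 9.05, 7.91, 8.55, 7.66 and 7.91 at 0 hr, at 9.59, 9.18, 9.86, 9.84 and 9.00 at 6 hr and at 9.57, 10.17, 10.20 and 10.75 at 24 hr. The series 1 library of 6 hr lay just below the highest control, and all others of both times lay above. On the log2 scale the fold change was 1.37 (SE 0.41, adjusted p 0.0111) at 6 hr and 1.39 (SE 0.43, adjusted p 0.034) at 24 hr. The 24 hr call ended without 0 hr replicates 2, 4 or 5, or 24 hr replicates 2 or 5 (0.93 to 1.39), and under limma-voom (1.32). Both heart calls ended with all 3 tissues in 1 fit, at 1.29 and 1.37. At 48 hr Bcl2l1 in heart passed only without a filter (0.95) or without library series (1.49). Brain at 48 hr shows how wide Bcl2l1 spread, from 6.75 to 9.83 with 3 libraries above and 3 below all controls. It did not pass at any time in brain or lung.

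In lung at 6 hr the libraries differ widely in depth. Casp4 stood at 3.65, 6.18, 4.09 and 3.23 at 0 hr and at 7.90, 7.52, 7.83 and -3.35 at 6 hr. Birc3 stood at 5.52, 6.49, 6.32 and 5.11 at 0 hr and at 8.08, 8.66, 8.67 and -3.35 at 6 hr. For both genes the 3 libraries of series 2 lay above every control, and replicate 4 had no read. With all 4 libraries the log2 fold changes were 1.94 (SE 0.61, adjusted p 0.0564) for Casp4 and 1.86 (SE 0.68, adjusted p 0.102) for Birc3. Without replicate 4, a choice made after the data had been seen, 4 members passed: Casp6 as before, Casp4 at 2.22 (adjusted p 0.026), Birc3 at 2.34 (adjusted p 0.023) and Mlkl at 2.16 (adjusted p 0.0427). That fit called 683 of all genes, against 824 with replicate 4. The scaling matters there, since the median log2 fold change of all genes in lung at 6 hr was -0.42 under TMM, -0.11 under RLE, -0.18 under limma-voom and 0.14 under DESeq2. Under RLE and DESeq2 Casp4, Birc3 and Mlkl passed with all 4 libraries, at 2.16 to 2.39. They passed with all 3 tissues in 1 fit as well (2.71, 2.32 and 1.78), as did Casp1 (1.74), and Casp4 under limma-voom (2.32) and without library series (2.41). For lung at 6 hr the fit of 3 tissues called 6312 genes and DESeq2 2302, against 824 in the edgeR fit of lung alone.

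Other members of lung at 6 hr turn on single libraries. Gsdmd had no read in replicates 1, 2 and 4 and stood at 4.85 in replicate 3, above 3 of its 4 controls at 3.05 to 6.33. Casp8 stood at 5.96 and 1.90 in replicates 1 and 3 and had no read in the other 2, against 4.25 to 7.28 at 0 hr. Bcl2l1 ran from 5.85 to 12.40, with replicate 3 above and the others below all controls. Its log2 fold change was 0.09, and -2.82 without replicate 3 (adjusted p 0.00753). Without replicate 3 no library of 6 hr held a read of Gsdmd, and the fit called it lower at -10.68, a value set by zeros that measures no size. Casp8 passed as lower without replicate 1 (-3.74). Leaving out lung 0 hr replicate 2 or 6 hr replicate 2 or 3 brought Casp4 past the threshold at 2.67, 2.08 and 1.73.

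At 24 hr lung has 2 libraries, with Casp4 at 5.76 and 6.27 and Birc3 at 7.83 and 7.78. Their log2 fold changes were 2.60 (adjusted p 0.139) and 1.74 (adjusted p 0.806), and edgeR called neither. Both had an unadjusted p under 0.05, and DESeq2 called Casp4 (2.68). Ripk3 in lung at 48 hr ran from 3.57 over a median of 4.22 to 7.33, with 5 of 6 libraries above all 4 controls at -0.53 to 3.89. On the log2 scale the fold change of 2.88 (SE 0.78, adjusted p 0.0852) did not pass. It passed under DESeq2 (2.99), with no filter on low counts (2.85), with all 98 libraries (3.30) and with all 3 tissues in 1 fit (2.81). In that last fit Ripk3 in lung passed at 72 hr too (1.76). The fit of 3 tissues called 2731 genes for lung at 48 hr and 1631 at 72 hr, against 102 and 33 in lung alone.

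Whether the response to LPS differed between tissues was tested as an interaction, in 1 fit of 0, 6 and 24 hr over the 3 tissues. As read from file names, brain and heart share their mice at 6 and 24 hr too, and lung comes from some of them. The main fit treats these libraries as independent, and the mouse entered as a block in an alternative fit only. Between brain and heart edgeR called 0 of 9 members at 6 hr, where 0.376% of 20744 genes passed, and 0 of 9 at 24 hr, against 0.463%. At an unadjusted p under 0.05 there were 0 members at 6 hr and 1, Ripk3, at 24 hr. DESeq2 and limma-voom called 0 at either time. With the mouse as a block, a test added after the data had been seen, 0 member calls were gained in any response. So the member counts of 5 in brain and 8 in heart at 6 hr do not amount to a shown difference in response. For Casp4 the estimate of brain against heart was 0.90 (SE 0.87, adjusted p 0.75).

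Between lung and heart at 6 hr 2 of 9 passed, where 16.3% of genes did. Gsdmd differed by -3.07 (SE 0.93, adjusted p 0.0226) and Casp8 by -2.75 (SE 0.86, adjusted p 0.0266), lung having the lower response. The median of all genes in that comparison was -0.43 under TMM, -0.17 under RLE, 0.31 under limma-voom and 0.34 under DESeq2. DESeq2 did not call Casp8 (-2.11) and gave no adjusted p for Gsdmd (-3.07), and with series fitted by tissue neither passed (-1.97 and -2.004). Both calls also ended with the mouse as a block, a test added after the data had been seen, at -2.85 and -2.67. The Gsdmd call ended without lung 0 hr replicate 4 (-2.01), and without lung 6 hr replicate 3, the only one there with Gsdmd reads, the fit gave -13.81, which measures no size. The Casp8 call ended without any 1 of heart 0 hr replicates 1, 2 and 5, heart 6 hr replicate 2, lung 0 hr replicate 4 and lung 6 hr replicate 2 (-1.92 to -2.56), and was -5.46 without lung 6 hr replicate 1. It also ended under RLE scaling (-2.06) and with all 98 libraries (-2.56). Without lung 6 hr replicate 3 Bcl2l1 passed at -3.73, and Casp6, then with no read in lung at 6 hr, at a fitted -9.01. Without the 3 libraries of 6 hr from series 1 Mlkl passed as well, at -1.65.

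Between brain and lung at 6 hr 1 of 9 passed, Casp6 at 2.55 (SE 0.80, adjusted p 0.0357), where 10.4% of genes did. The median of all genes was 0.43 under TMM, 0.23 under RLE, -0.18 under limma-voom and -0.34 under DESeq2. The Casp6 call ended without any 1 of brain 0 hr replicate 2, brain 6 hr replicates 4 and 6, lung 0 hr replicates 2 and 4 and lung 6 hr replicates 1 and 2 (2.18 to 2.49), and under limma-voom (2.398). With series fitted by tissue (2.65) and with all 98 libraries (2.26) it did not pass. Without lung 6 hr replicate 3 Bcl2l1 passed at 2.68. Casp6 and Gsdmd then had no read in lung at 6 hr, and their fitted values of 10.06 and 12.555, both past the threshold, measure no size. Casp8 passed without lung 6 hr replicate 1 (4.70) and under limma-voom (3.56), and Mlkl without the 6 hr libraries of series 1 (1.97).

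Without the 6 hr libraries of series 1, all 9 of 9 members passed in heart at 6 hr and 7 of 9 in brain. The additions were Ripk3 in heart at 0.85, and Casp1 at 0.86 and Gsdmd at 1.00 in brain. The number of all genes called moved with them, from 1238 to 2760 in brain and from 6854 to 9332 in heart. With all libraries 19234 genes were tested in brain and 16024 in heart. Leaving these libraries out was a choice made after the data had been seen. Whether their 6 hr label is right was not tested, and neither was any other feature that may set them apart.

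A list of 72 other genes of these pathways gives the setting. Of those tested, 18 of 66 passed as higher and 1 as lower in brain at 6 hr, 5 and 0 of 65 in lung and 28 and 10 of 57 in heart. Their median log2 fold change was 0.22, 0.04 and 0.56. By 168 hr edgeR called 0 of them in each tissue. These shares, as those of the members, are to be read beside the 6.44%, 4.83% and 42.8% of all genes.

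Among 18 genes of inflammasomes and pyroptosis 2 of 14 tested passed as higher in brain, 2 of 15 in lung and 6 of 11 in heart at 6 hr. Il1b, the cytokine that caspase-1 matures, rose in all 3 tissues, with log2 fold changes of 5.34 in heart, 4.97 in brain and 4.34 in lung. Ninj1, which ruptures membranes after pore formation, was at 1.62 in heart, and the sensors Naip5 and Aim2 at 1.16 and 0.67. The Naip5 call ended without any 1 of heart 0 hr replicates 3, 4 and 5 and 6 hr replicates 1 and 3 (0.97 to 1.04), and with all 3 tissues in 1 fit (1.23). That of Aim2 ended without any 1 of 0 hr replicates 1, 2, 4 and 5 and 6 hr replicates 2 and 4 (0.41 to 0.71). It ended too under limma-voom (0.63), without a filter (0.66), without library series (0.68) and with all 3 tissues in 1 fit (0.70). Among 12 genes of necroptosis and death complexes 4 of 12 passed as higher in brain, 2 in lung, and 6 as higher and 1 as lower in heart. There the nucleic acid sensor Zbp1 rose by 5.49 on the log2 scale, the deubiquitinase Tnfaip3 by 5.03, the caspase-8 inhibitor Cflar by 2.41 and the adaptor Traf2 by 1.69. Zbp1 also rose in brain by 5.39 and in lung by 3.57. Tnfaip3 did so by 4.00 in brain, ending under limma-voom (3.00), and by 4.16 in lung, ending without library series (3.04).

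Apoptotic caspases and apoptosome genes were mixed, with 4 higher and 3 lower of 9 in heart, 1 and 1 in brain and 0 of 9 in lung by edgeR. Cytochrome c (Cycs) rose by 1.51 in heart while the initiator Casp9 stood at -1.12 (-1.74 without replicate 5) and Casp2 at -0.90. The apoptosome scaffold Apaf1 rose by 1.07 in brain, a call that ended without library series (0.87) and with all 3 tissues in 1 fit (0.88). Of 7 BCL-2 family survival genes 3 of 6 tested passed as higher in brain, 0 of 6 in lung, and 1 as higher and 2 as lower of 3 in heart. In heart Mcl1 rose by 0.79 while Bcl2 and Bcl2l2 stood at -1.65 and -0.54, the Bcl2l2 call ending without 6 hr replicate 2 (-0.48) or 3 (-0.42), without a filter (-0.55) and with all 3 tissues in 1 fit (-0.59). Of 11 BCL-2 family death genes 2 of 11 passed as higher in brain, 0 of 10 in lung, and 5 as higher and 3 as lower of 10 in heart. Bid and Bcl2l11 rose there by 4.50 and 2.64 and Bmf stood at -1.30. Pmaip1 in brain, at 2.60, lost its call without any 1 of the 10 libraries except 6 hr replicate 6 (2.36 to 2.76), under limma-voom (2.28), without library series (2.02) and with all 3 tissues in 1 fit (2.35).

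The 5 other inhibitors of apoptosis gave 1 gene higher in brain, 0 by edgeR in lung and 1 in heart, Birc2, which encodes cIAP1 and lies beside Birc3. It rose by 3.43 in heart. Of 10 death receptors and ligands 5 of 9 passed as higher in brain, 1 of 9 in lung, and 5 as higher and 1 as lower of 8 in heart. Tnf rose by 8.96 in brain (5.56 under limma-voom), 5.63 in lung and 4.49 in heart. The lung call of Tnf ended without 0 hr replicate 2 (4.99) or 3 (5.21) or 6 hr replicate 1 (3.81). Tnfrsf25 and Tnfsf10 rose in heart by 2.22 and 1.80. Fas rose by 1.61 in heart and by 1.74 in brain, where the call ended without library series (1.24). For the counts of 0 in lung at 6 hr, few libraries were deep, as for the members.

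**Figure D4:**
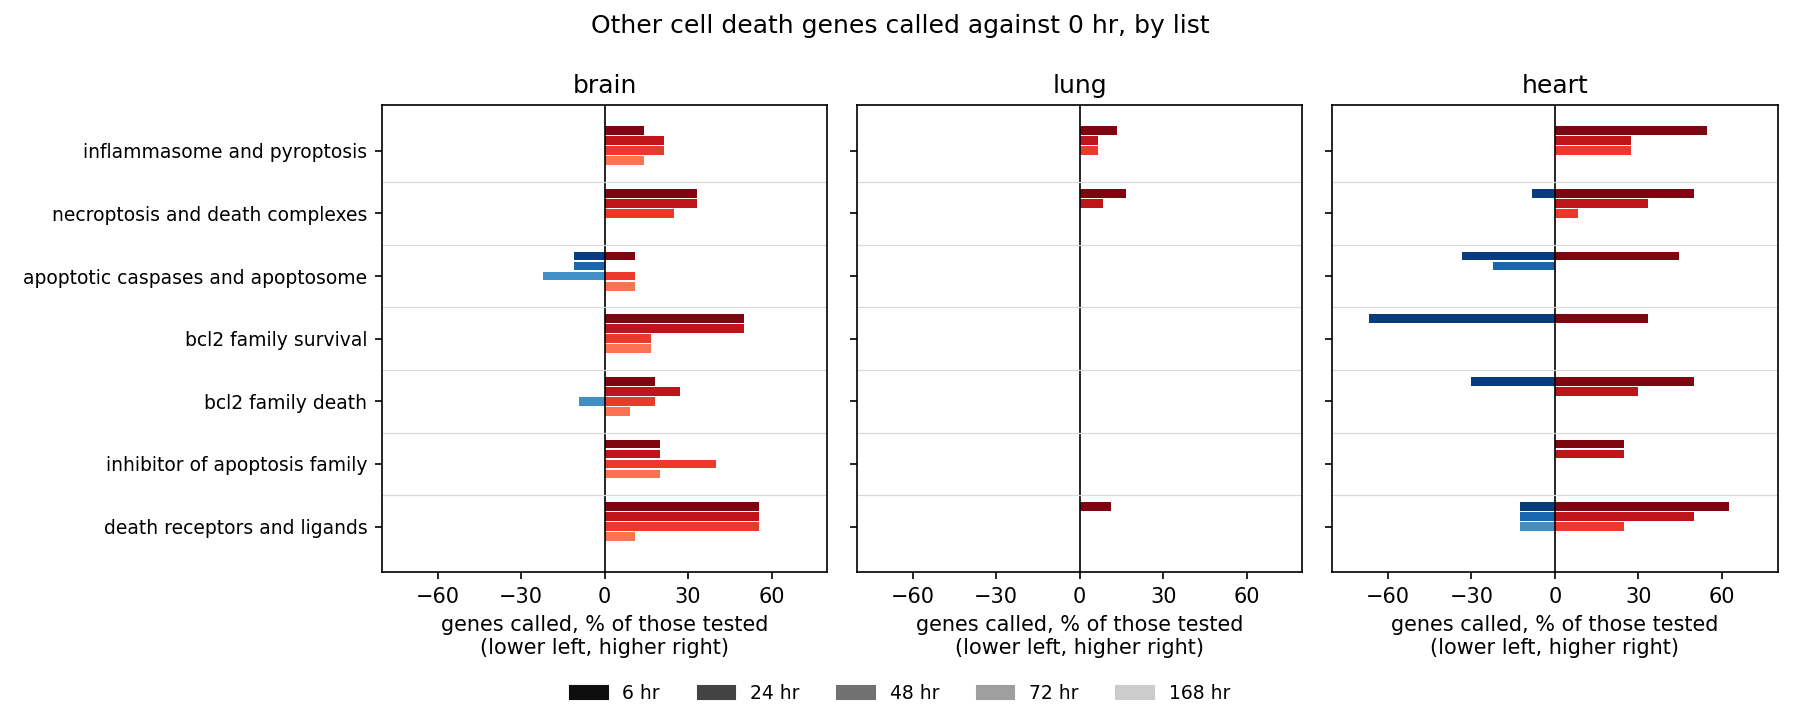
Share of tested genes called by edgeR against 0 hr in 7 lists of other cell death genes, in % of those tested, with red bars to the right for higher, blue bars to the left for lower and paler shades for later times from 6 to 168 hr. No list has a bar at 168 hr.

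The member patterns closest to one another are those of Casp4, Birc3 and Mlkl. Over the 80 libraries, after removal of library series and of the 0 hr mean of each tissue, Pearson's r was 0.93 between Casp4 and Birc3, 0.81 between Mlkl and Birc3 and 0.80 between Casp4 and Mlkl. Casp6 had r of -0.02 with Casp4 and 0.68 with Gsdmd. The points share time course, batches and the shallow lung libraries, so r is a description. Among 9017 genes the closest to Casp4 was Tnfaip2 (r 0.93), to Birc3 Sbno2 (0.95) and to Mlkl Nfkb2 (0.89). The closest to Ripk3 was Elf4 (0.85), to Casp6 Ripply3 (0.94), to Casp8 Ercc3 (0.93), to Gsdmd Znhit6 (0.94) and to Bcl2l1 Mafg (0.85). Casp1 was too low, with a mean log2 CPM under 3, to be placed.

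Some blood cell markers also changed after LPS, in ways that differed by tissue and time. Of 12 neutrophil genes 8 were tested in heart, and 7 passed as higher at 6 hr, 6 at 24 hr and 7 at 48 hr. Their summed level in heart at 0 hr was 1.14, 1.55, 0.968, 1.20 and 1.32 CPM in the 5 libraries, and at 6 hr 43.5, 40.5, 53.6, 62.9 and 0.956 CPM. Replicate 5, low in Casp4, was thus also at control level here, and S100a9 was the most abundant gene in the others. Camp, Elane, Ly6g and Mmp8 had no read in any heart library of 0 hr, and Elane and Ly6g had at most 1 read in a heart library of 6 hr. In lung 7 of 11 neutrophil genes tested passed as higher at 6 hr, with sums of 114, 122, 211 and 45.7 CPM at 0 hr and 4149, 1922, 3549 and 28.9 CPM at 6 hr. The lung sums ran from 1506 to 2737 CPM at 24 hr, 668 to 4885 at 48 hr and 755 to 1816 at 72 hr. All of these lay above those of 0 hr, and the sums of 168 hr ran from 28.4 to 253 CPM. In brain 1 of 10 passed as higher at 6 hr and 5 of 10 at 48 hr, with sums of 6.37 to 57.6 CPM at 0 hr, 7.86 to 415 CPM at 6 hr and 50.6 to 191 CPM at 48 hr, S100a8 or S100a9 being highest. At 24 hr the brain sum ran from 42.7 to 129 CPM (median 53.7), against a median of 29.5 at 0 hr. The part of neutrophil RNA in the member changes was not tested.

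Of 14 genes of monocytes, macrophages and microglia 0 of 14 passed in brain at 6 hr by edgeR, 9 at 48 hr and 7 at 72 hr, all higher. Their sum in brain was 138 to 292 CPM at 0 hr, 138 to 353 at 6 hr and 131 to 654 at 48 hr, with Tmem119 or C1qb the most abundant. The medians were 218, 335 and 302 CPM, and the part of these cells in the brain changes of members was not tested. In heart 3 of 13 passed as higher and 1 as lower at 6 hr and 5 as higher at 48 hr, and in lung 2 of 14 at 6 hr. In lung their sum was 318 to 751 CPM at 0 hr and 520 to 3843 at 6 hr, with Lyz2 highest in replicates 1, 2 and 3. At 24, 48 and 72 hr the lung sum ran from 334 to 411, 320 to 4394 and 398 to 997 CPM. Its median at 48 hr was 394 CPM.

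Endothelial markers went down in heart at 6 hr, where 8 of 10 passed as lower. Their sum was 4722, 5974, 4728 and 6543 CPM in replicates 1 to 4 and 11519 in replicate 5, against 10503 to 11939 at 0 hr. In brain 1 passed as higher and 4 as lower at 6 hr, with sums of 1518 to 2715 CPM, and in lung 2 passed as lower, with 2279 to 9037 CPM. Fewer cells, less RNA per cell and other causes cannot be told apart in such bulk samples, and none was tested. At 24 hr 0 of 10 passed in heart by edgeR, and the sum was again 9068 to 11518 CPM.

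Among the remaining marker lists at 6 hr edgeR called 2 of 8 neuron and glia genes and 2 of 6 heart muscle genes higher in lung, the sum of the latter there reaching 2500 CPM at 6 hr, and 1 of 6 heart muscle genes higher in heart. Of platelet genes 1 of 2 tested passed as higher in heart, where the sum ran from 4.20 to 7.28 CPM at 0 hr (median 4.74) and from 3.51 to 123 at 6 hr (median 68.8). Of neuron and glia genes 1 of 9 passed as higher in brain. Of mural and fibroblast genes 1 of 7 passed as lower in lung and 1 of 7 in heart. At later times 1 of 7 passed as higher in heart at 48 hr, where the sum was 792 to 1529 CPM against 333 to 636 at 0 hr. In brain 1 of 7 passed as higher at 24 hr and at 48 hr, with median sums of 4011 and 2204 CPM against 1205 at 0 hr. The platelet sum in heart ran from 13.7 to 35.1 CPM at 24 hr and from 10.4 to 17.5 at 48 hr, above all of 0 hr. In lung the platelet sum was 48.5 to 146 CPM at 24 hr, against 4.85 to 22.9 at 0 hr. Among lymphocyte and lung epithelial genes edgeR called 0 in any tissue at 6 hr, although the epithelial sum in lung ran from 260 to 26367 CPM at that time.

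**Figure D5:**
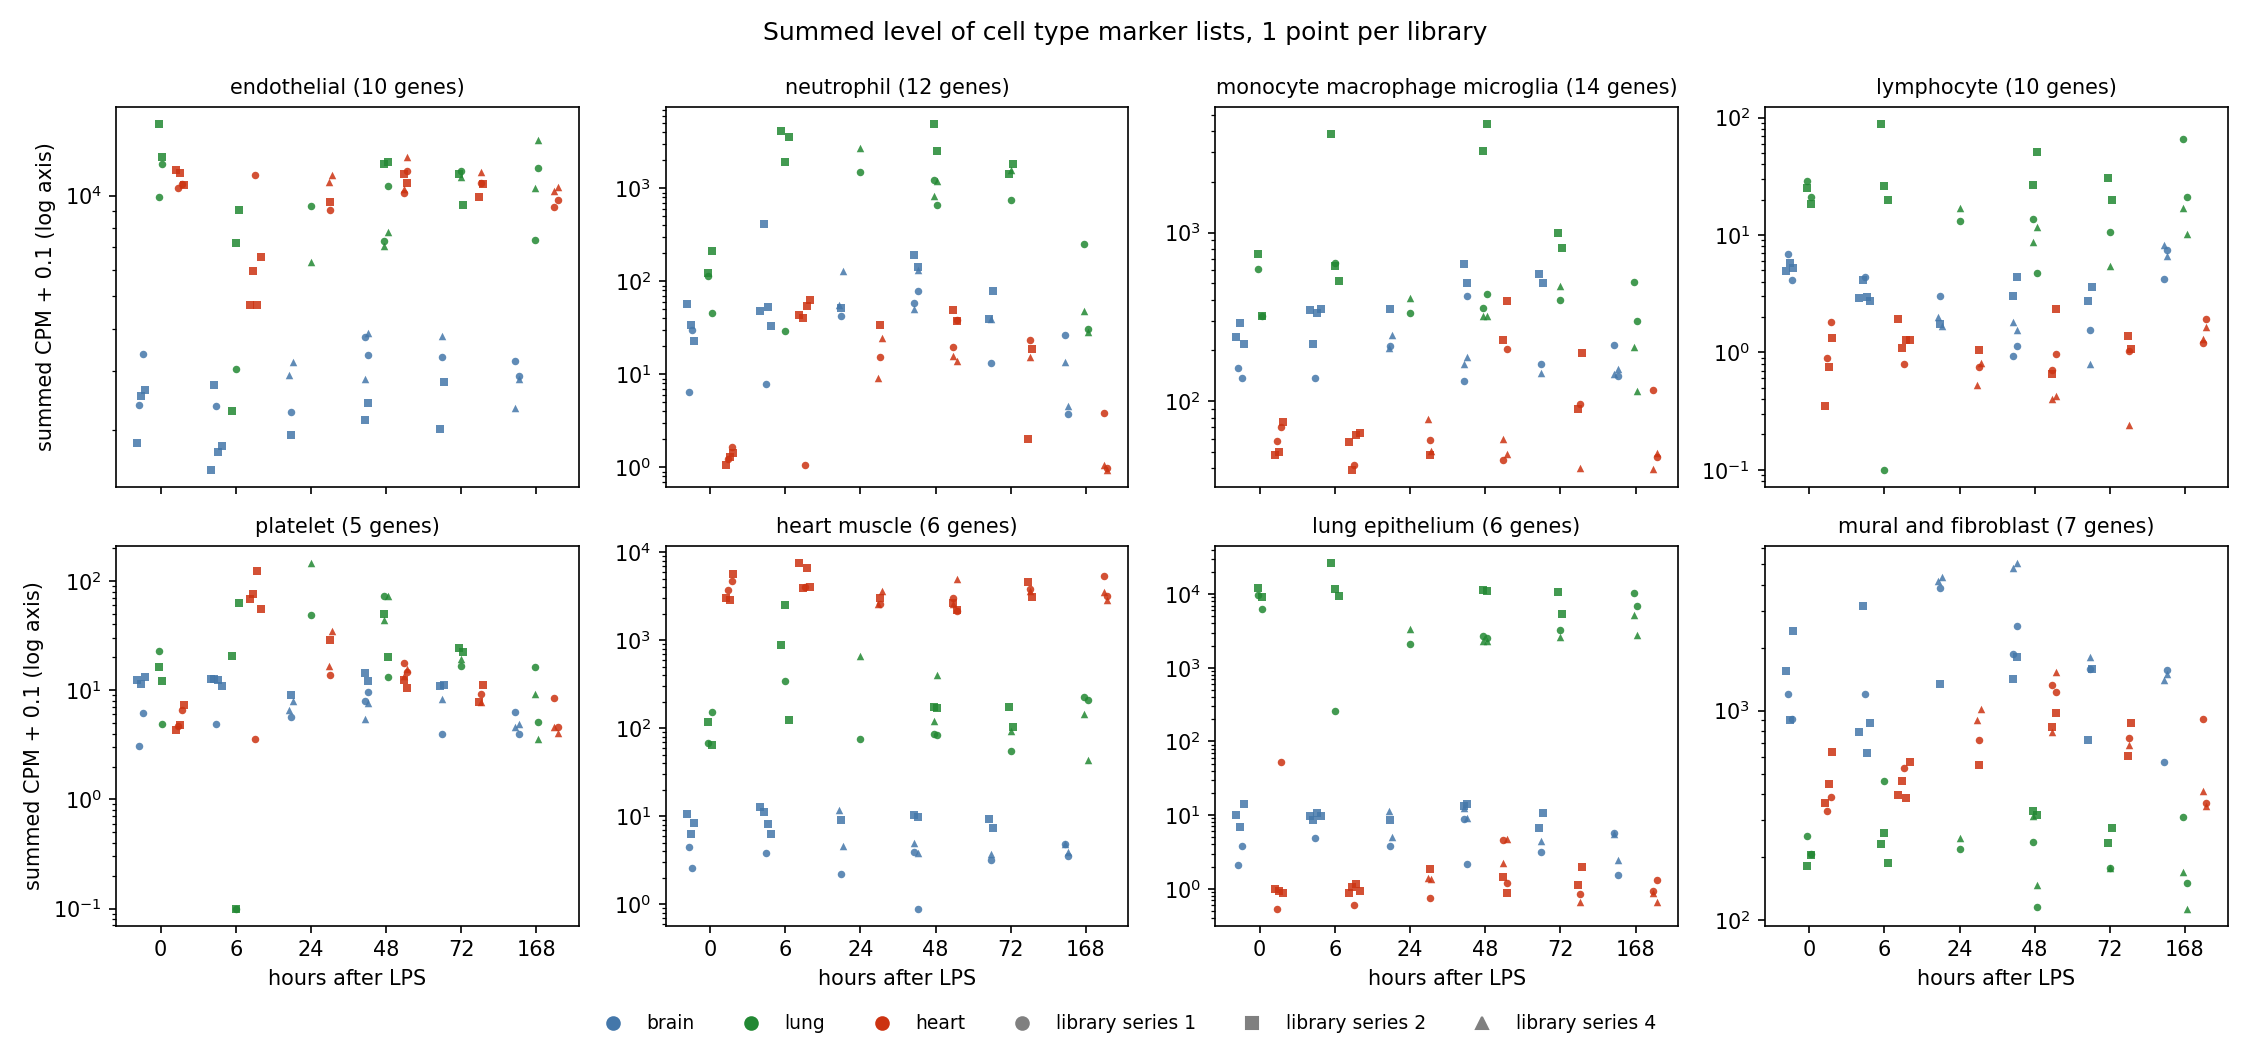
Summed CPM (plus 0.1, log axis) of 8 lists of cell type markers in each library by hours after LPS, with colour for tissue and marker shape for library series. In heart the neutrophil sum reaches 62.9 CPM at 6 hr from at most 1.55 at 0 hr, and the endothelial sum falls to between 4722 and 6543 in 4 of the 5 libraries.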

How the data were processed

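The deposited counts are raw reads per gene from the authors, aligned to mm10 with STAR 2.4.2 and counted with HTSeq 0.6.1, 1 file per sequencing run; the annotation release and strand setting are not given in the sources used here. Sums over 217 runs gave 98 libraries of 52550 gene identifiers, and 18 libraries, all of library series 3, were left out for 1.73% to 2.75% of reads on genes. Closing lines that name no gene, with a median of 40.3% of reads, stayed out of library sizes. Symbols, lengths and coordinates are those of GENCODE M21 on GRCm38, which may not be the authors' release.

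Tests used edgeR 4.0.16 in R 4.3.3 (TMM, filterByExpr by group, quasi-likelihood F test, library series as a term, Benjamini-Hochberg adjustment over all tested genes, threshold 0.05). Alternatives were DESeq2 1.42.0, limma-voom (limma 3.58.1), RLE scaling, no filter, no library series, all 98 libraries, all 3 tissues in 1 fit, library series by tissue, blocks by replicate number or mouse, and each library left out. Of 57 same-numbered pairs of libraries 13 had residuals correlated over 0.1 (median -0.09), so that the numbers were not taken as pairs. Python 3.11.15 with pandas 2.3.3, numpy 2.4.6, scipy 1.17.1 and matplotlib 3.10.9 made sums, promoter matches and figures.

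Named genes are the 9 members, up to 4 called genes of each of the 7 pathway lists with the largest fold changes at 6 hr and a mean log2 CPM of at least 1, the 3 closest genes of each member of which 1 is given, and the most abundant or absent markers of the 9 cell type lists. 1 marker gene, and sums that hold it, are not reported here. The members and lists were chosen with earlier results of these data known.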

Additional observations from a re-analysis of the deposited data

Results flagged for a closer look

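Of 153 groups of 4 to 6 libraries tested for a library far from the others (Dixon's test at 95%), in 11 there was such a library, and chance gives about 1 in 20 groups. Casp4 stood at 0.64 log2 CPM in brain 6 hr replicate 6, apart from the other libraries of its group. Casp4 stood at -3.35 log2 CPM in lung 6 hr replicate 4, apart from the other libraries of its group. Casp4 stood at 3.55 log2 CPM in heart 6 hr replicate 5, apart from the other libraries of its group. Gsdmd stood at 4.51 log2 CPM in brain 24 hr replicate 2, apart from the other libraries of its group. Gsdmd stood at 4.85 log2 CPM in lung 6 hr replicate 3, apart from the other libraries of its group. Gsdmd stood at 5.38 log2 CPM in heart 6 hr replicate 5, apart from the other libraries of its group. Ripk3 stood at 7.33 log2 CPM in lung 48 hr replicate 4, apart from the other libraries of its group. Casp6 stood at 0.96 log2 CPM in lung 6 hr replicate 3, apart from the other libraries of its group. Casp6 stood at 5.28 log2 CPM in heart 168 hr replicate 1, apart from the other libraries of its group. Bcl2l1 stood at 7.29 log2 CPM in brain 6 hr replicate 2, apart from the other libraries of its group. Birc3 stood at -3.35 log2 CPM in lung 6 hr replicate 4, apart from the other libraries of its group. For Gsdmd and Casp6 in lung 6 hr replicate 3 the other 3 libraries had no read and share 1 value, so that the test says nothing there.

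Response tests between tissues passed for 3 members. The Gsdmd response at 6 hr differed by -3.07 between lung and heart. The Casp8 response at 6 hr differed by -2.75 between lung and heart. The Casp6 response at 6 hr differed by 2.55 between brain and lung. With the mouse as a block the Gsdmd and Casp8 calls ended, and with library series fitted by tissue all 3 did.

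The libraries left out for under 3% of reads on genes held 155176 to 1330479 counts each. Of 135 values compared, 14 lay above the left-out 0 hr library of the same tissue, with exact Poisson 95% intervals that did not overlap. Each is 1 library against 1, and the intervals cover counting error only. The lung 0 hr library had no read of any member and reads on 473 genes, so that the lung values cannot be read as a rise. Casp4 and Birc3 are not among the 14. Casp4 stood at 1.73 CPM (upper limit 9.65) in the left-out brain library of 24 hr and at 0 (upper limit 5.6) in that of heart at 6 hr, where the kept libraries had means of 61.6 and 181 CPM. Birc3 stood at 1.73 (upper limit 9.65) and 6.07 CPM (upper limit 15.5) in the same 2, against 138 and 306. Ripk3 stood at 77.9 CPM in brain 24 hr, 55.1 CPM in brain 48 hr, 28.5 CPM in lung 24 hr, 31.6 CPM in lung 48 hr and 20.8 CPM in lung 72 hr. In the left-out heart libraries Ripk3 was at 55.5 CPM at 0 hr and at 27.3, 36.9, 66.5, 41.0 and 37.4 CPM at 6, 24, 48, 72 and 168 hr. Each of these intervals overlapped with that of 0 hr, while in the kept heart libraries Ripk3 passed as higher at 24 hr. Mlkl stood at 20.9 CPM in brain 48 hr and 17.3 CPM in lung 48 hr. Bcl2l1 stood at 43.3 CPM in brain 24 hr, 34.2 CPM in brain 48 hr, 66.1 CPM in heart 24 hr, 97.1 CPM in heart 48 hr, 63.3 CPM in lung 24 hr, 51.9 CPM in lung 48 hr and 16.2 CPM in lung 168 hr.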

How the results depend on the processing

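Each setting was set beside the edgeR fit, and counts of genes or of members called are given where they moved by more than 1.5 times or began or ended at 0.

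With all 3 tissues in 1 fit, there were 730 genes called for brain at 24 hr, 639 for brain at 48 hr, 470 for brain at 6 hr, 308 for brain at 72 hr, 1196 for heart at 24 hr, 3358 for heart at 6 hr, 77 for heart at 72 hr, 473 for lung at 168 hr, 1757 for lung at 24 hr, 2731 for lung at 48 hr, 6312 for lung at 6 hr and 1631 for lung at 72 hr. The members called there were 2 for heart at 24 hr, 1 for heart at 48 hr, 5 for heart at 6 hr, 1 for lung at 48 hr, 5 for lung at 6 hr and 2 for lung at 72 hr. With all 98 libraries, there was 1 gene called for lung at 168 hr, 164 for lung at 48 hr, 508 for lung at 6 hr, 63 for the 24 hr response of brain against heart, 43 for the 6 hr response of brain against heart and 2147 for the 6 hr response of lung against heart. Members called were 1 for lung at 48 hr, 0 for the 6 hr response of brain against lung and 1 for the 6 hr response of lung against heart. DESeq2 gave 2 genes called for brain at 168 hr, 1173 for brain at 72 hr, 2 for heart at 168 hr, 1353 for heart at 48 hr, 177 for heart at 72 hr, 30 for lung at 168 hr, 239 for lung at 24 hr, 509 for lung at 48 hr, 2302 for lung at 6 hr, 330 for lung at 72 hr, 306 for the 24 hr response of brain against heart and 302 for the 6 hr response of brain against heart. Counts of members were 5 for brain at 72 hr, 1 for lung at 24 hr, 1 for lung at 48 hr, 4 for lung at 6 hr and 0 for the 6 hr response of lung against heart. limma-voom gave 1810 genes called for brain at 48 hr, 312 for heart at 48 hr, 0 for heart at 72 hr, 0 for lung at 168 hr, 165 for lung at 48 hr, 70 for lung at 72 hr, 55 for the 24 hr response of brain against heart and 47 for the 6 hr response of brain against heart. Among the members the counts were 2 for brain at 48 hr, 1 for heart at 48 hr and 2 for lung at 6 hr. With library series fitted by tissue, there were 4 genes called for the 24 hr response of brain against heart and 33 for the 6 hr response of brain against heart. The members called there were 0 for the 6 hr response of brain against lung and 0 for the 6 hr response of lung against heart.

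Without the 6 hr libraries of library series 1, an alternative chosen after the data had been seen, there were 2760 genes called for brain at 6 hr and 1139 for the 6 hr response of brain against heart. Members called were 4 for lung at 6 hr and 2 for the 6 hr response of brain against lung. Without a filter on low counts, there were 9 genes called for brain at 168 hr, 1142 for brain at 72 hr, 17 for heart at 168 hr, 1446 for heart at 48 hr, 325 for heart at 72 hr, 38 for lung at 168 hr, 148 for lung at 24 hr, 294 for lung at 48 hr, 1489 for lung at 6 hr, 122 for lung at 72 hr, 319 for the 24 hr response of brain against heart and 407 for the 6 hr response of brain against heart. Counts of members were 6 for brain at 72 hr, 4 for heart at 48 hr and 1 for lung at 48 hr. Without the library series term, there were 466 genes called for brain at 6 hr, 372 for brain at 72 hr, 5300 for heart at 24 hr, 1544 for heart at 48 hr, 1 for lung at 168 hr and 170 for lung at 48 hr. Among the members the counts were 3 for brain at 6 hr, 4 for heart at 48 hr and 2 for lung at 6 hr. With same-numbered libraries as a block, which their residuals do not back as pairs, there were 839 genes called for brain at 24 hr, 1615 for heart at 24 hr, 209 for heart at 48 hr, 1 for heart at 72 hr, 0 for lung at 24 hr, 64 for lung at 48 hr, 20 for lung at 72 hr and 226 for the 6 hr response of brain against heart. The members called there were 3 for brain at 24 hr, 3 for heart at 24 hr and 0 for heart at 48 hr. Under RLE scaling, there was 1 gene called for lung at 168 hr. Members called were 4 for lung at 6 hr and 1 for the 6 hr response of lung against heart. With the mouse as a block, which for the responses was added after the data had been seen, there were 749 genes called for the 6 hr response of brain against lung. Counts of members were 0 for the 6 hr response of lung against heart.

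Within library series 1, with 1 library of 6 hr against 2 of 0 hr and no test, the direction turned for Casp1 in heart at -0.75, Casp4 in brain at -1.09, Casp4 in heart at -0.74, Casp8 in heart at -0.45, Gsdmd in heart at -0.27, Mlkl in brain at -0.12 and Mlkl in heart at -0.21, all at 6 hr. These are members called at 6 hr. Of those not called, the sign also differed between the edgeR fit and series 1 for Casp1 in brain (0.67 and -0.23), Gsdmd in brain (0.73 and -0.53), Casp8 in brain (0.37 and -0.32), Bcl2l1 in brain (0.29 and -0.03), Casp1 in lung (1.29 and -4.19), Casp4 in lung (1.94 and -6.80), Ripk3 in lung (1.46 and -6.50), Mlkl in lung (1.79 and -7.62), Bcl2l1 in lung (0.09 and -3.79), Birc3 in lung (1.86 and -8.67) and Ripk3 in heart (0.50 and -1.31), where in lung the 1 library was the shallow one.

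When 1 library at a time was left out, the genes called ran from 8460 to 9393 for brain against heart before LPS, 10435 to 13610 for brain against lung before LPS, 9850 to 12672 for lung against heart before LPS, 0 to 0 for brain at 168 hr, 1036 to 1824 for brain at 24 hr, 1177 to 3636 for brain at 48 hr, 828 to 2760 for brain at 6 hr and 388 to 614 for brain at 72 hr. They ran from 0 to 0 for heart at 168 hr, 574 to 1918 for heart at 24 hr, 294 to 1045 for heart at 48 hr, 5005 to 9332 for heart at 6 hr, 0 to 248 for heart at 72 hr, 1 to 4 for lung at 168 hr and 22 to 51 for lung at 24 hr, and from 21 to 122 for lung at 48 hr, 203 to 4897 for lung at 6 hr, 11 to 34 for lung at 72 hr, 44 to 86 for the 24 hr response of brain against heart, 30 to 1279 for the 6 hr response of brain against heart, 1740 to 6516 for the 6 hr response of brain against lung and 2621 to 7097 for the 6 hr response of lung against heart.

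In the same runs the members called ran from 5 to 6 for brain against lung before LPS, 5 to 8 for lung against heart before LPS, 4 to 6 for brain at 24 hr, 3 to 5 for brain at 48 hr, 5 to 7 for brain at 6 hr, 2 to 3 for brain at 72 hr, 2 to 5 for heart at 24 hr, 1 to 2 for heart at 48 hr, 7 to 9 for heart at 6 hr, 1 to 4 for lung at 6 hr, 0 to 3 for the 6 hr response of brain against lung and 0 to 4 for the 6 hr response of lung against heart. They stayed at 8 for brain against heart before LPS, 0 for brain at 168 hr, 0 for heart at 168 hr, 0 for heart at 72 hr, 0 for lung at 168 hr, 0 for lung at 24 hr, 0 for lung at 48 hr, 0 for lung at 72 hr, 0 for the 24 hr response of brain against heart and 0 for the 6 hr response of brain against heart. Leaving out 1 library turned the direction of Bcl2l1 in lung at 6 hr (-2.82 to 0.66), Bcl2l1 in the 6 hr response of brain against lung (-0.49 to 2.68) and Bid in lung at 6 hr (-4.59 to 2.48).

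Of the 34 calls of members after LPS, 34 were kept under DESeq2, RLE scaling, no filter and all 98 libraries, 31 without library series, 27 under limma-voom, 26 with the block and 23 with all 3 tissues in 1 fit. Leaving out 1 library in turn kept 294 of 330 calls, lost 36 and gained 13. Of 21 calls before LPS 19 to 21 were kept in each setting, and of 3 response calls 0 to 3. With 1 library left out 186 of 197 calls before LPS and 40 of 54 response calls were kept.

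Limits remain. Lung at 6 hr rests on 1 deep library, library series is read from file names, group sizes are 2 to 6, and the shares of other cells were not measured. Ribosome-bound RNA reports neither protein nor caspase cleavage, so that no death of cells was observed here.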
